A study of Saccharomyces cerevisiae with 15 samples.

Results

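A group of 9 genes of Saccharomyces cerevisiae encodes the yeast's own enzymes that can act on xylose, together with the aldo-keto reductases related to them. They are the aldo-keto reductase genes GRE3, GCY1, YPR1, YJR096W, ARA1 and YDL124W, the xylitol and sorbitol dehydrogenase genes XYL2 and SOR1, and the xylulokinase gene XKS1. The members were chosen by name, as the probe sets that the array annotation gives to these genes. The array holds 5656 genes with a probe set of their own, 8 of the members among them. Each member was read from 1 probe set, and all 9 probe sets passed the filter on low signals. The probe set of SOR1 also carries the name of SOR2, a near-identical gene, so it is called SOR1/SOR2 here and the transcripts of this pair cannot be told apart.

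Wild-type baker's yeast hardly grows on xylose although it has genes for every step. An aldose reductase such as Gre3p reduces xylose to xylitol, a xylitol dehydrogenase oxidises xylitol to xylulose, and xylulokinase phosphorylates xylulose so that it can enter the pentose phosphate pathway. Aldo-keto reductases are soluble enzymes that mostly use NADPH to reduce the carbonyl group of sugars, aldehydes and ketones, and their substrate ranges overlap. Several of their yeast genes are known to be induced by stress.

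Transcripts were measured on Affymetrix Yeast Genome S98 arrays in 3 states of strain VTT-C-99318, with 3 cultures per state. The states were cells taken after 72 h on xylose (Xyl72h), glucose derepressed cells taken after 24 h, when the glucose was used up (Glc24h), and glucose repressed cells of the same glucose cultures taken after 5 h (Glc5h). All were aerobic batch cultures on synthetic complete medium with 50 g l-1 of the sugar. Xyl72h differed from both glucose states in sugar, time of sampling and growth rate together, so these cannot be told apart here. RNA of culture 2 went onto 3 arrays per state and that of cultures 0 and 1 onto a single array, which makes 15 arrays of 9 samples. The strain was the same in all states and was made from CEN.PK2-1D, a MATα strain with mutant alleles of LEU2, URA3, TRP1 and HIS3 and with the MAL2-8c and SUC2 alleles. It carried XYL1 of Pichia stipitis, encoding xylose reductase, behind a PGK1 promoter, and the P. stipitis xylitol dehydrogenase gene XYL2 behind a modified ADH1 promoter, both at the URA3 locus. It also carried a second copy of yeast XKS1 behind the modified ADH1 promoter at HIS3, and the kanMX marker. XYL2 below always means the yeast gene, YLR070C, and not the P. stipitis gene of the same name. The XKS1 probe set reads the native and the added copy together, and there was no parent strain in the series, so the values describe this one engineered strain. The sampling times are those of the sample names, since the protocol text attached to some arrays gives another time.

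Signals are linear intensities scaled to a common 75th percentile. A signal of 16 was the floor, to which all lower values were raised, and 1 of the 135 values of the 9 genes on single arrays lay under it, at 15.7. Differences are differences of mean log2 signals over 3 cultures, tested with limma in 1 model over the 3 states, and called at an adjusted p (Benjamini-Hochberg over all 5877 tested probe sets) under 0.05. Brightness differs between probe sets for reasons unrelated to transcript number, so levels are compared between states and not between genes. The named states were checked on marker genes. HXT1, a low-affinity hexose transporter gene induced by high glucose, had a signal of 18.1 ± 1.09 in Xyl72h, 20.7 ± 8.08 in Glc24h and 253 ± 126 in Glc5h (SD, n = 3). MLS1, encoding malate synthase and repressed by glucose, had 242 ± 37.7 in Xyl72h, 987 ± 520 in Glc24h and lay at the floor in all Glc5h cultures. The array of Glc24h culture 1 had a ratio of 10.3 between the 3' and 5' probe sets of actin, a measure of RNA integrity and labelling, against 1.86 to 3.01 on the other arrays. Its part in the results was not tested beyond leaving that Glc24h sample out. This removed 2 of the 10 calls given below, XKS1 in Xyl72h minus Glc24h and XYL2 in Glc24h minus Glc5h. Leaving out a culture means here its sample in 1 state, so the Glc5h sample of the same glucose culture stayed in the fit. For the 9 genes, the SD between repeat hybridisations of culture 2 was 0.035 to 0.23 on the log2 scale, and the SD between cultures was 0.017 to 1.07.

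**Figure D1:**
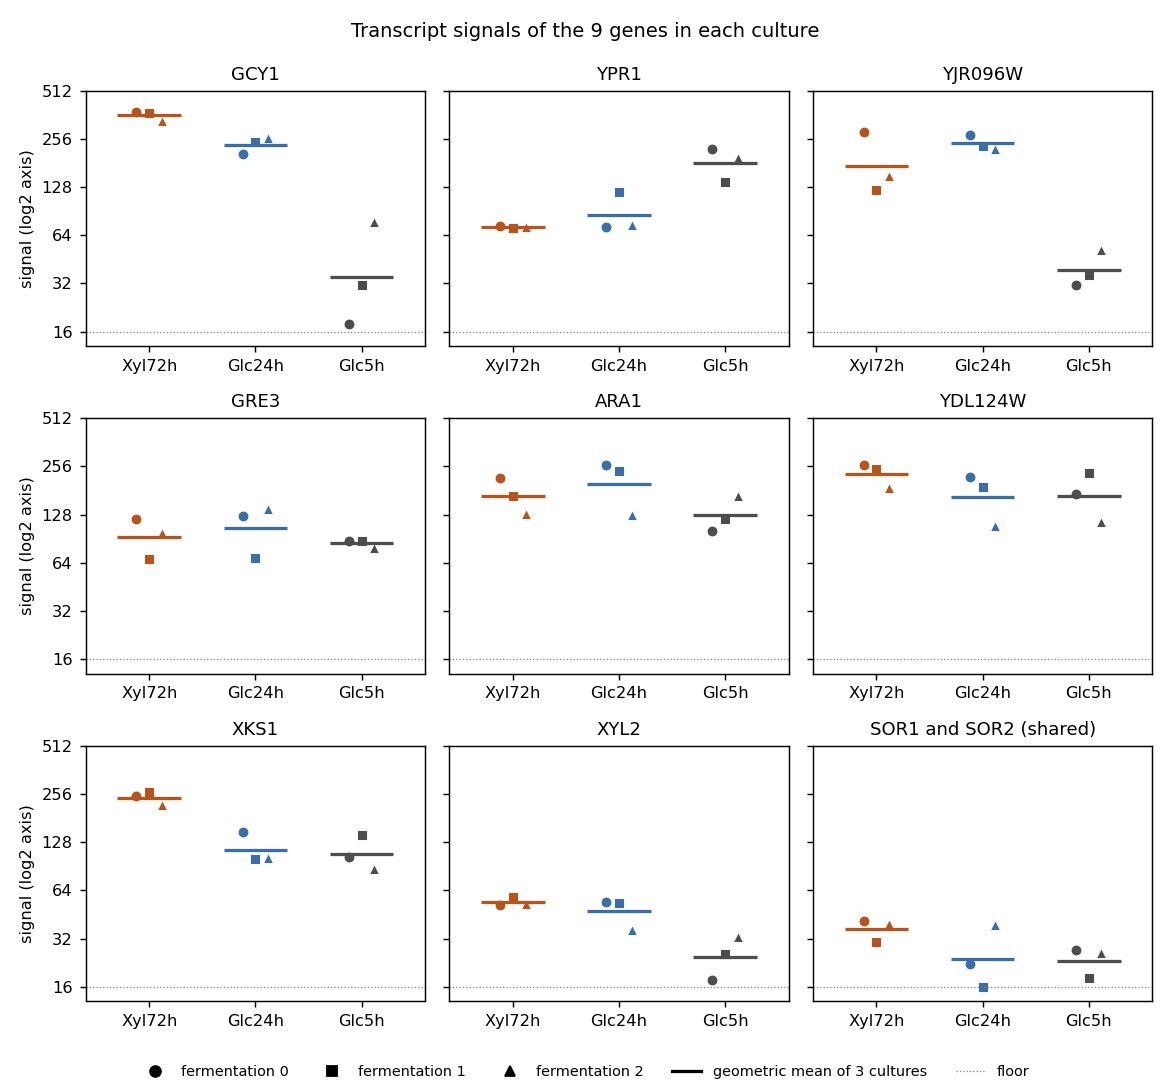
Signal of each of the 9 genes in each culture (vertical log2 axis, linear signal units) for Xyl72h, Glc24h and Glc5h from left to right. Symbols mark the culture number, bars the geometric mean of 3 cultures and the dotted line the floor of 16. The 3 Glc5h cultures lie below all others for GCY1, YJR096W and XYL2 and above all others for YPR1, and the 3 Xyl72h cultures lie above all others for XKS1 and GCY1.

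Over the 3 states, 5 of the 9 genes passed the limma F-test, against 34.3% of all tested probe sets. They were GCY1 (adjusted p = 0.00324), YJR096W (0.00200), YPR1 (0.00948), XKS1 (0.0102) and XYL2 (0.0200). ARA1, GRE3, YDL124W and SOR1/SOR2 did not pass, with adjusted p from 0.246 to 0.698. The F statistic over the states with an exact permutation p over all 280 partitions of the 9 samples gave 0.00357 for GCY1, the smallest value it can give. It gave 0.0107 for YPR1, 0.0143 for YJR096W, 0.0214 for XYL2 and 0.025 for XKS1, so that 1 gene was under the 0.01 used in the methods of the study.

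GCY1 encodes an aldo-keto reductase that acts on glycerol and a range of aldehydes. Its signal in cultures 0, 1 and 2 was 379, 369.9 and 332 in Xyl72h, 206, 245 and 259 in Glc24h, and 17.8, 31.1 and 77.8 in Glc5h. The 3 states did not overlap, and the Glc5h cultures spread over 4.36-fold, more than the 1.14-fold of Xyl72h and the 1.25-fold of Glc24h. The transcript was higher in Xyl72h than in Glc5h by 3.36 on the log2 scale (SE 0.47, adjusted p = 0.00263), which is 10.3-fold with a 95% confidence interval of 4.84 to 21.7. It held rank 36 among the 5877 probe sets ordered from the greatest rise in this comparison. The RNA came from whole cultures, so a change in every cell and a change in a share of the cells cannot be told apart. It was also higher in Glc24h than in Glc5h, by 2.75 (adjusted p = 0.00393). All Xyl72h cultures lay above all Glc24h cultures, but the difference of 0.61 was not called (adjusted p = 0.574, 95% confidence interval -0.47 to 1.69). The spread in that test is shared with the Glc5h cultures, and with only Xyl72h and Glc24h in the fit the adjusted p was 0.0541.

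YPR1 is the duplicate of GCY1 left by the whole-genome duplication, and its product reduces branched aldehydes among others. Its signal was 73.0, 71.3 and 72.1 in Xyl72h, 71.9, 118 and 74.0 in Glc24h, and 220.4, 138 and 194 in Glc5h. Here the Glc5h cultures were the high ones, above every other culture, and the Xyl72h cultures differed by only 1.02-fold. The highest Glc24h value, in culture 1, came from the array with the high actin ratio, and the calls against Glc5h held without it. YPR1 was lower in Xyl72h than in Glc5h by a log2 difference of -1.32 (SE 0.24, adjusted p = 0.00711), 2.50-fold. Glc24h minus Glc5h was -1.07 (adjusted p = 0.0116). With the glucose culture as a block, in a fit of the glucose states alone, this second call was lost (adjusted p = 0.130), as it was when the arrays were scaled on 5 reference genes (-0.47, adjusted p = 0.116). Xyl72h and Glc24h did not differ by more than their spread (-0.25, adjusted p = 0.687, 95% confidence interval -0.80 to 0.31). The 2 duplicates thus had opposite directions against Glc5h, GCY1 higher and YPR1 lower in Xyl72h.

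YJR096W encodes a reductase that accepts xylose and arabinose. Its signal was 283, 123 and 151 in Xyl72h, 270.4, 230.02 and 220.7 in Glc24h, and 31.3, 35.9 and 51.6 in Glc5h. The Glc5h cultures lay below all others, while the Xyl72h cultures spread over 2.31-fold and straddled the Glc24h cultures. The differences from Glc5h were 2.16 in Xyl72h (SE 0.32, adjusted p = 0.00356), a 4.48-fold rise, and 2.63 in Glc24h (adjusted p = 0.00105), a 6.18-fold rise. Xyl72h minus Glc24h was -0.46 and was not called (adjusted p = 0.527, 95% confidence interval -1.22 to 0.29).

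GRE3 encodes the aldose reductase known as the main unspecific xylose-reducing enzyme of the yeast and is induced by osmotic and other stress. Its signal was 120.2, 67.5 and 98.7 in Xyl72h, 125, 68.5 and 139 in Glc24h, and 87.7, 88.0 and 79.6 in Glc5h. The cultures numbered 1 were the lowest of both Xyl72h and Glc24h, and the 3 states overlapped throughout. Xyl72h minus Glc5h was 0.13 (adjusted p = 0.823), with a 95% confidence interval of -0.58 to 0.84 that reaches 1.79-fold upward and leaves smaller changes undecided. Xyl72h minus Glc24h was -0.19 (adjusted p = 0.862) and Glc24h minus Glc5h 0.32 (adjusted p = 0.457).

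ARA1, which encodes an NADP-dependent arabinose dehydrogenase, had signals of 217, 166 and 130.001 in Xyl72h, 261, 241 and 127 in Glc24h, and 101, 120.5 and 168 in Glc5h. YDL124W, encoding a reductase of alpha-keto amides, had 260, 246 and 189 in Xyl72h, 221, 190 and 109 in Glc24h, and 173, 233 and 114 in Glc5h. All 3 states overlapped for both genes, and no difference was called. For ARA1 the differences were 0.40 for Xyl72h minus Glc5h, -0.26 for Xyl72h minus Glc24h and 0.66 for Glc24h minus Glc5h (adjusted p = 0.424, 0.803 and 0.171). For YDL124W they were 0.46, 0.47 and -0.01 in the same order (adjusted p = 0.368, 0.548 and 1).

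XYL2 of yeast encodes a xylitol dehydrogenase and belongs to the dimmer probe sets of the 9. Its signal was 51.8, 57.8 and 52.5 in Xyl72h, 54.4, 53.5 and 36.5 in Glc24h, and 17.6, 25.7 and 32.8 in Glc5h. The Glc5h cultures were the low ones, and Xyl72h and Glc24h overlapped. Xyl72h minus Glc5h was 1.13 (SE 0.25, adjusted p = 0.0153), a 2.19-fold rise, and the adjusted p was 0.0510 without Xyl72h culture 1. Glc24h minus Glc5h was 0.94 (adjusted p = 0.0229), and with the glucose culture as a block the adjusted p was 0.158. Xyl72h minus Glc24h was 0.19 (adjusted p = 0.806, 95% confidence interval -0.39 to 0.77).

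SOR1/SOR2, sorbitol dehydrogenases that also oxidise xylitol, had signals of 41.4, 30.6 and 39.3 in Xyl72h, 22.1, 16 and 38.8 in Glc24h, and 27.1, 18.0 and 25.9 in Glc5h. Culture 1 was the lowest in each state, at the floor in Glc24h. All Xyl72h cultures lay above all Glc5h cultures, but the difference of 0.66 was not called (adjusted p = 0.186, 95% confidence interval -0.11 to 1.42). Xyl72h minus Glc24h was 0.62 (adjusted p = 0.367) and Glc24h minus Glc5h was 0.04 (adjusted p = 0.956).

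XKS1 encodes xylulokinase. Its signal was 248, 263 and 219 in Xyl72h, 149, 101 and 101 in Glc24h, and 104, 141 and 87.2 in Glc5h. Every xylose culture lay above every glucose culture, and the glucose states overlapped. XKS1 was higher in Xyl72h than in Glc5h by 1.16 (SE 0.22, adjusted p = 0.00914), 2.23-fold with a 95% confidence interval of 1.56 to 3.20. It was higher in Xyl72h than in Glc24h by 1.08 (SE 0.22, adjusted p = 0.0364), 2.11-fold with an interval of 1.47 to 3.03. Glc24h minus Glc5h was 0.08 (adjusted p = 0.812). The call against Glc24h was close to the threshold and was lost on leaving out any one Xyl72h culture (adjusted p from 0.0902 to 0.129) and on leaving out Glc24h culture 1 (0.102), Glc24h culture 2 (0.104) or Glc5h culture 0 (0.0569), while the difference remained between 0.84 and 1.26 in the alternatives tried.

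The added XKS1 copy is driven by a modified ADH1 promoter, and the native ADH1 transcript, looked up after the XKS1 values were seen, had signals of 2162, 1189 and 1337 in Xyl72h, 969, 411 and 745 in Glc24h, and 2297, 1300 and 828 in Glc5h. ADH1 encodes the main ethanol-forming alcohol dehydrogenase. Its difference was 0.16 for Xyl72h minus Glc5h, 1.18 for Xyl72h minus Glc24h and -1.02 for Glc24h minus Glc5h, none of them called (adjusted p = 0.864, 0.215 and 0.128). The native ADH1 signal does not measure the modified promoter of the added copy. Whether the XKS1 differences come from the native or the added copy was not tested.

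**Figure D2:**
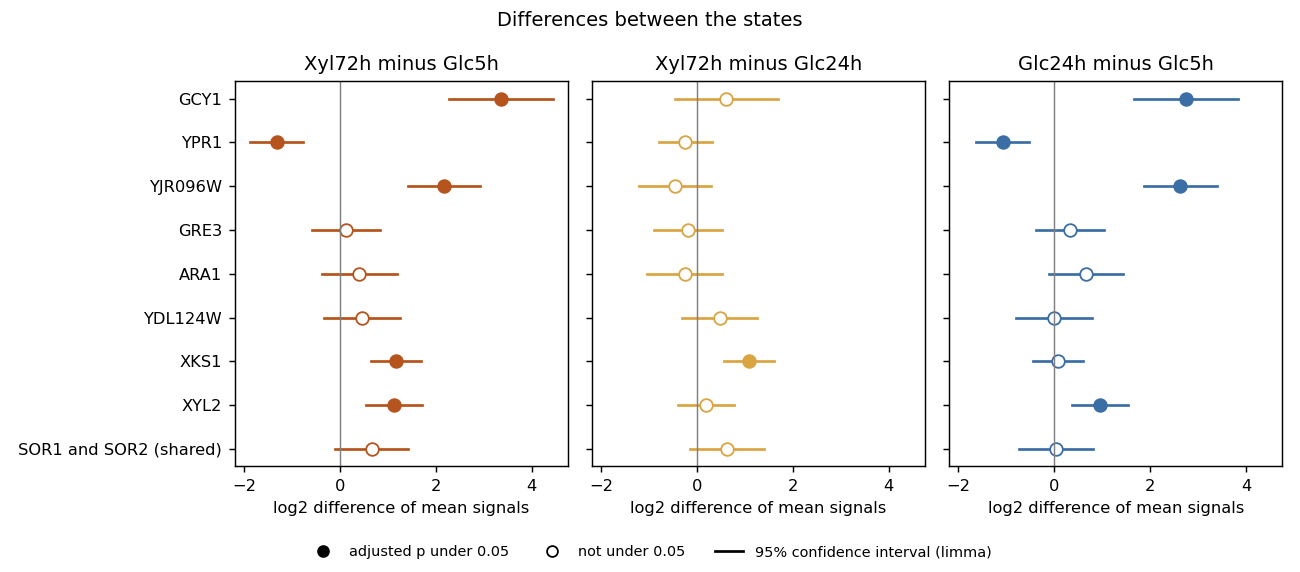
Log2 difference of mean signals (horizontal axis) of each of the 9 genes for Xyl72h minus Glc5h, Xyl72h minus Glc24h and Glc24h minus Glc5h, with the 95% confidence interval of limma. Filled points have an adjusted p under 0.05. Against Glc5h, GCY1, YJR096W and XYL2 are filled to the right and YPR1 to the left in both states, and XKS1 is the one filled point between Xyl72h and Glc24h.

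Counted over the 9 genes, Xyl72h minus Glc5h had 4 higher (GCY1, YJR096W, XKS1 and XYL2) and 1 lower (YPR1), where 11.7% of all tested probe sets were called higher and 14% lower. In this comparison 6 of the 9 did not overlap between the states, as did 41% of all tested probe sets. Xyl72h minus Glc24h had 1 higher (XKS1) and 0 lower, with 3.37% of all probe sets higher and 2.26% lower, and 2 of the 9 did not overlap, a share near the 24.8% of all probe sets. Glc24h minus Glc5h had 3 higher (GCY1, YJR096W and XYL2) and 1 lower (YPR1), with 14.4% of all probe sets higher and 19.1% lower, and 4 of the 9 did not overlap, a share near the 42.5% of all probe sets. The median difference of the 9 genes was 0.66 for Xyl72h minus Glc5h, 0.19 for Xyl72h minus Glc24h and 0.32 for Glc24h minus Glc5h, and that of all tested probe sets was -0.02, 0 and -0.03. The comparisons share cultures, since each state enters 2 of them. For GCY1, YJR096W, XYL2 and YPR1 the differences from Glc5h stood side by side at 3.36, 2.16, 1.13 and -1.32 in Xyl72h and at 2.75, 2.63, 0.94 and -1.07 in Glc24h, and for XKS1 at 1.16 in Xyl72h and 0.08 in Glc24h.

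**Figure D3:**
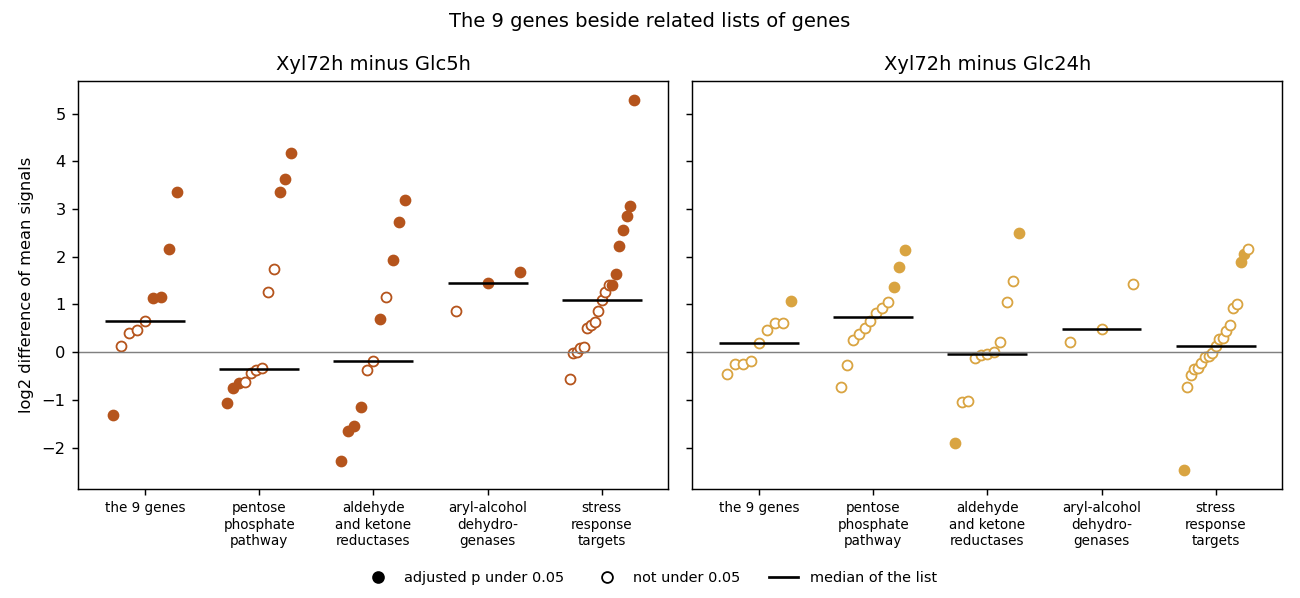
Log2 difference of mean signals (vertical axis) of the 9 genes and of every tested gene of 4 related lists, for Xyl72h minus Glc5h and Xyl72h minus Glc24h. Each point is a gene, filled where the adjusted p is under 0.05, and the bars are medians. Genes at the floor in a state are drawn at their bound, such as TKL2 at 4.17.

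Xylulose 5-phosphate, the product of xylulokinase, is used by the pentose phosphate pathway, which had 12 genes on the array, all tested. In Xyl72h minus Glc5h 3 were higher and 3 lower, with a median of -0.35. For this list and those below, the shares of all tested probe sets were 11.7% higher and 14% lower in this comparison. They were 3.37% and 2.26% in Xyl72h minus Glc24h, and 14.4% and 19.1% in Glc24h minus Glc5h. TKL2, a minor transketolase isoform, had 296 ± 80.7 in Xyl72h and 193 ± 77.5 in Glc24h and lay at the floor in all Glc5h cultures, so that it was at least 18.0-fold higher in Xyl72h (adjusted p = 0.000223). The spread of a state at the floor is 0 by construction, which can make such a p too small. NQM1, a transaldolase of unknown role, had 218 ± 52.2 in Xyl72h, 179 ± 6.93 in Glc24h and 17.3 ± 2.30 in Glc5h, a difference of 3.64 for Xyl72h minus Glc5h (adjusted p = 4.95e-05). Its Glc5h cultures 0 and 1 lay at the floor, so that this difference is a lower bound too and its p can be too small. SOL3, a 6-phosphogluconolactonase, was lower in Xyl72h than in Glc5h (-1.07, adjusted p = 0.0101), as was the epimerase RPE1, which interconverts xylulose 5-phosphate and ribulose 5-phosphate (-0.75, adjusted p = 0.0199). The RPE1 call was lost in 6 of 21 alternatives, which were scaling on the reference genes (-0.32, adjusted p = 0.206), leaving out any one Xyl72h culture (0.0518 to 0.0664) or Glc5h culture 0 (0.0658), and fitting only the states compared (0.0602).

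In Xyl72h minus Glc24h the pathway had 3 higher and 0 lower, with a median of 0.74. SOL3 was among them, with 97.6 ± 18.9 in Xyl72h, 22.0 ± 3.87 in Glc24h and 205 ± 40.0 in Glc5h, a difference of 2.15 from Glc24h (adjusted p = 0.00264). The other two, named after their values were seen, were the 6-phosphogluconate dehydrogenase GND1 (1.78, adjusted p = 0.00519) and the main transketolase TKL1 (1.36, adjusted p = 0.0116). Glc24h minus Glc5h had 3 higher and 5 lower. SOL3, GND1 and TKL1 were thus called higher in Xyl72h than in Glc24h, as was XKS1, whose call held in 8 of 21 alternatives. SOL3 and TKL1 were called lower in Xyl72h than in Glc5h, TKL1 close to the threshold (-0.65, adjusted p = 0.0497). The GND1 and TKL1 calls were not followed singly through the alternatives.

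Reductases of other families that act on aldehydes and ketones made up a list of 12 genes, of which 11 were tested and ADH7 lay at the floor on all arrays. In Xyl72h minus Glc5h 4 were higher and 4 lower, with a median of -0.19. OYE3, an NADPH dehydrogenase, had 159 ± 63.2 in Xyl72h, 134 ± 40.9 in Glc24h and 16.6 ± 0.80 in Glc5h, and the butanediol dehydrogenase gene BDH1 had 278 ± 152, 91.3 ± 17.5 and 38.4 ± 7.53 in the same order. Their differences in Xyl72h minus Glc5h were 3.18 and 2.74 (adjusted p = 0.000759 and 0.00251). OYE3 lay at the floor in Glc5h culture 1, so that its difference is a lower bound. ARI1, an NADPH-dependent aldehyde reductase, lay at the floor in all Xyl72h and Glc24h cultures, against 77.9 ± 5.59 in Glc5h, at least 4.86-fold lower in Xyl72h (adjusted p = 2.52e-05). ADH6, an NADPH-dependent alcohol dehydrogenase, had 47.0 ± 15.4 in Xyl72h, 24.3 ± 14.4 in Glc24h and 148 ± 47.8 in Glc5h (-1.66 for Xyl72h minus Glc5h, adjusted p = 0.0342). This ADH6 call was lost in 9 of 21 alternatives, among them leaving out any one Xyl72h culture (0.0540 to 0.113), Glc5h culture 0 (0.123) or Glc5h culture 2 (0.0812), with a highest adjusted p of 0.123.

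In Xyl72h minus Glc24h this list had 1 higher and 1 lower, YMR315W (2.49, adjusted p = 0.00264) and YNL134C (-1.91, adjusted p = 0.00368), the second named after its value was seen. Glc24h minus Glc5h had 4 higher and 3 lower. This list thus held called members of both directions against Glc5h. So did all tested probe sets, with 11.7% higher and 14% lower in Xyl72h minus Glc5h. Other aldo-keto reductase genes of the yeast include the aryl-alcohol dehydrogenase genes and YPL088W, which made up a list of 8. Of these 8, 3 had no probe set of their own, 2 lay at the floor and 3 were tested. AAD10 was higher in Xyl72h than in Glc5h by 1.68 (adjusted p = 0.0103) and YPL088W by 1.46 (adjusted p = 0.0318). YPL088W lay at the floor in Glc5h cultures 0 and 1, so that its difference is a lower bound. The YPL088W call was lost in 9 of 21 alternatives, with an adjusted p of 0.0540 without Glc24h culture 1, the array with the high actin ratio. No gene of the 3 was called in Xyl72h minus Glc24h, and 1, AAD10, was higher in Glc24h than in Glc5h (1.20, adjusted p = 0.0274). This AAD10 call was lost with the glucose culture as a block (0.108), with no filter on low signals (0.0723), with only the glucose states in the fit (0.0865), and without Glc24h culture 1 (0.0803), Glc24h culture 2 (0.0881), Glc5h culture 0 (0.0906) or Glc5h culture 2 (0.0518).

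Because GRE3 and some of its relatives are known stress genes, 19 targets of the stress factors Msn2/4 and Hog1 were set beside them. In Xyl72h minus Glc5h 7 were higher and 0 lower, with a median of 1.10, and in Glc24h minus Glc5h 9 were higher and 2 lower, with a median of 1.21. Of all tested probe sets, 11.7% were higher and 14% lower in the first comparison, and 14.4% and 19.1% in the second. With the glucose culture as a block the count of the 19 in Glc24h minus Glc5h was 3 higher and 1 lower. Its 11 calls were 7 with no filter, without Glc24h culture 0 or 2, and with only the glucose states in the fit. GRE1, a hydrophilin gene induced by osmotic stress, had 791 ± 341 in Xyl72h, 396 ± 200.4 in Glc24h and 19.3 ± 5.71 in Glc5h, a difference of 5.30 for Xyl72h minus Glc5h (adjusted p = 0.000389). DCS2, a paralog of the scavenger decapping enzyme, had 235 ± 52.9, 276 ± 52.2 and 33.0 ± 24.9 in the same order (3.06, adjusted p = 0.00410). GRE1 lay at the floor in Glc5h cultures 0 and 1 and DCS2 in Glc5h culture 0, so that both differences are lower bounds. GRE3, at 0.13 in the same comparison, was not called. Nor were 12 of the 19 targets, with differences from -0.56 (GPP1) to 1.41 (SOD2). Among these 12 were the glycerol genes GPD1 (0.11) and GPP2 (0.08). The 7 calls became 4 without Glc5h culture 0 or without Glc5h culture 1, and 11, all higher, with scaling on the reference genes.

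In Xyl72h minus Glc24h 2 of the 19 were higher and 1 lower. The 2 were the catalase gene CTT1, with 131 ± 39.0 in Xyl72h, 31.7 ± 10.2 in Glc24h and 23.4 ± 12.8 in Glc5h (2.05, adjusted p = 0.0362), and the glycerol phosphatase gene GPP2, with 79.2 ± 11.0 in Xyl72h, 22.3 ± 8.72 in Glc24h and 83.0 ± 48.4 in Glc5h (1.88, adjusted p = 0.0462). CTT1 lay at the floor in Glc5h cultures 0 and 1. The 1 lower was the glycerol transporter gene STL1 (-2.48, adjusted p = 0.00112), named after its value was seen. Its Xyl72h minus Glc5h difference was 0. The 3 calls became 1 on leaving out any Xyl72h culture, Glc24h culture 1 or 2, or Glc5h culture 0. They also became 1 with no further scaling, with a floor of 4 and with no filter. The CTT1 call was lost in 13 of 21 alternatives and the GPP2 call in 15 of 21. With the fermentation number as a block the CTT1 and GPP2 calls were both lost (adjusted p = 0.0564 and 0.0539).

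Genes for polyol dehydrogenases and transporters, SOR2, DSF1, MAN2, HXT13, HXT15, HXT16 and HXT17, had no probe set of their own. The set shared by the 4 transporter genes, whose products carry polyols, had 39.6, 63.8 and 48.0 in Xyl72h and 17.4, 21.0 and 22.0 in Glc24h, and lay at the floor in all Glc5h cultures. It was higher in Xyl72h than in Glc24h by 1.30 (adjusted p = 0.00919) and than in Glc5h by at least 3.09-fold (adjusted p = 0.00121). The set shared by DSF1 and MAN2 was at or within 1 unit of the floor in every culture.

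Of the markers of the states, 4 of the 5 genes of glucose derepressed cells were higher in Xyl72h than in Glc5h and 5 of 5 were lower in Xyl72h than in Glc24h, a count that ranged from 1 without Xyl72h culture 0 or 2 to 5. In the second comparison GCY1 and YJR096W had 0.61 and -0.46, with no call. FBP1, which encodes the gluconeogenic fructose bisphosphatase, had 31.2 ± 3.77 in Xyl72h and 496 ± 246 in Glc24h and lay at the floor in Glc5h, and ICL1, encoding isocitrate lyase, had 198 ± 39.7, 949 ± 435 and 22.0 ± 10.3 in the same order. PCK1, the carboxykinase of gluconeogenesis, had 104 ± 72.7 in Xyl72h, 844 ± 437 in Glc24h and 16.8 ± 1.23 in Glc5h. HXT3, a transporter gene of glucose-grown cells, had 186 ± 58.9 in Xyl72h, 40.8 ± 6.48 in Glc24h and 592 ± 95.7 in Glc5h. By HXT3 the xylose cultures thus stood between the glucose states, unlike by HXT1. MIG2, the remaining marker of glucose repressed cells, was not called in Xyl72h minus Glc5h (-0.83, adjusted p = 0.134). Nor was it called in Xyl72h minus Glc24h (0.37, adjusted p = 0.699).

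The genes with the pattern most like each member were found by Pearson correlation of log2 signals over the 9 samples, among 2525 named genes with a mean well above the floor. All points share the same 9 samples and 3 states, so these values describe likeness and carry no test. For GCY1 they were SKM1 (r = 0.988), SSE2 (0.983) and NNR2 (0.982), and for YJR096W they were PAU16 (0.992), whose probe set is shared within the PAU family, PKH1 (0.988) and OM45 (0.987). For YPR1 they were GIR2 (0.979), PRE9 (0.966) and SBA1 (0.964), and for XYL2 they were AMS1 (0.971), SUE1 (0.963) and GPH1 (0.958). By r, these 4 members had the closest neighbours of the 9.

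For XKS1 the nearest were YCL049C (r = 0.949), YEF1 (0.941) and YMR315W (0.936). YMR315W, an NADPH-linked oxidoreductase gene from the list of other reductases, had 707 and 526 and 515 in Xyl72h cultures 0, 1 and 2, 123, 94.9 and 92.6 in Glc24h, and 137, 209.8 and 118 in Glc5h. Its xylose cultures lay above all glucose cultures, and its difference between the glucose states was not called (-0.55, adjusted p = 0.125). It is named here for its likeness to XKS1 over the same samples, so sharing this order follows from that choice. By r, the members with no called difference had less close neighbours. Differences between the states raise r, so this order can follow from the measure alone. The nearest was MIR1 for GRE3 (0.896), DCS1 for ARA1 (0.923), HPF1 for YDL124W (0.918) and RAM2 for SOR1/SOR2 (0.929, among 2526 genes). By Spearman rank correlation this order did not hold. With the same nearest genes it gave 0.817 for GRE3, 0.983 for ARA1, 0.683 for YDL124W and 0.967 for SOR1/SOR2. It gave 0.883 for GCY1, 0.895 for YJR096W, 0.783 for YPR1, 0.85 for XYL2 and 0.9 for XKS1.

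**Figure D4:**
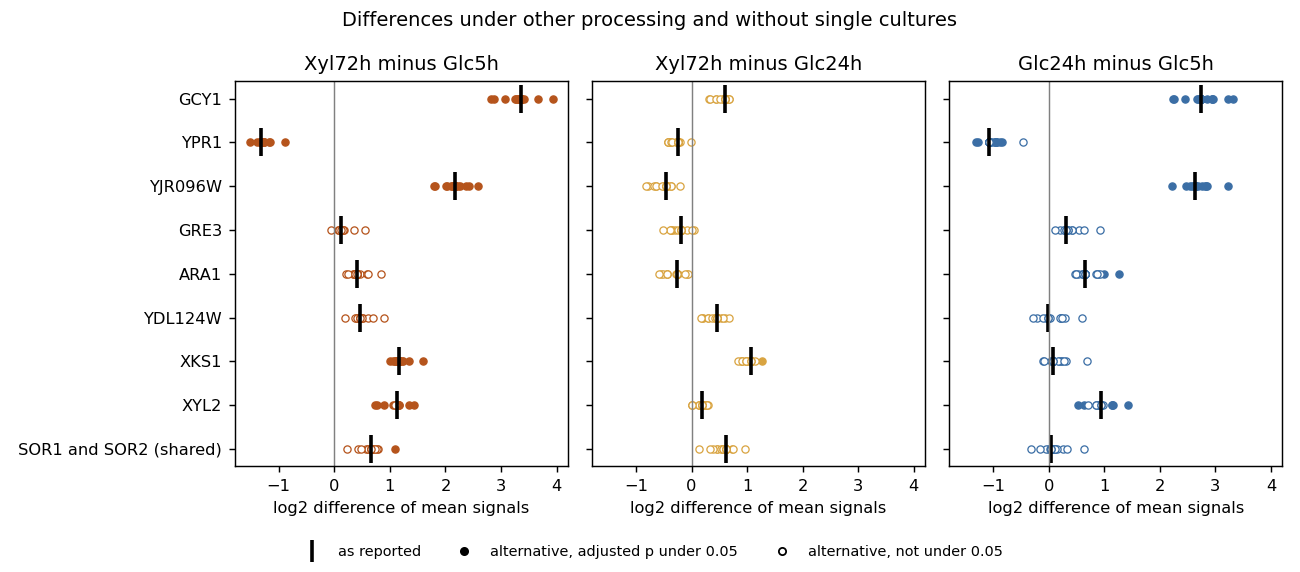
Log2 differences (horizontal axis) of the 9 genes as reported (vertical ticks) and under each alternative processing or without single cultures (points, filled where the adjusted p is under 0.05). GCY1 and YJR096W stay filled in both comparisons with Glc5h, XKS1 and YPR1 stay filled in Xyl72h minus Glc5h, and the points of XKS1 in Xyl72h minus Glc24h stay at 0.84 to 1.26 with few of them filled.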

How the data were processed

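Signal intensities on a linear scale were deposited by the authors, for 9335 probe sets on 15 arrays. They came from Affymetrix MicroArray Suite 5.0 and were scaled so that the mean of each array without the outer 2% was about 50. The methods of the study describe log2 values from Robust Multichip Average, which the deposited table does not hold, so the form of the test for linear signals was used. The genome build is not given in the sources used here and positions were not used.

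After removal of 60 control probe sets, the 75th percentile of every array was brought to their median (51.1), values below 16 were raised to 16, log2 was taken and the 3 hybridisations of culture 2 were averaged. A further 3398 probe sets that never exceeded the floor were dropped, which left 5877. Probe sets were named from the platform annotation (6504 with 1 gene, 328 with several, 2443 unlisted), with symbols updated from a RefSeq gene table. The 3 states were compared in 1 model with limma 3.58.1 (lmFit and eBayes, two-sided, Benjamini-Hochberg) in R 4.3.3 with statmod 1.5.0. Python 3.11.15 with matplotlib 3.10.9 drew the figures. The fit was tested on simulated data. An exact permutation test of 3 cultures against 3 cannot go below p = 0.1.

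The precision is limited by the number of arrays and by signal: 52.3% of all values lay under 16. The members, lists and tests were chosen with earlier results of these data known. Named genes were all 9 members, up to 4 per list with the largest called rises and falls in Xyl72h minus Glc5h and Xyl72h minus Glc24h, and the 3 nearest patterns per member. A gene was read from a probe set of its own before a shared one, then from the brightest.

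The glucose cultures were sampled at both times, which pairs Glc24h with Glc5h. Deviations from the state means of same-numbered samples correlated at 0.02, 0.19 and 0.26 for these states, at 0.11, 0.28 and 0.20 for Xyl72h with Glc5h, and at 0.58, 0.53 and 0.57 for Xyl72h with Glc24h. The methods used no pairing, so the fit has no block and blocked fits are alternatives. The others were array scaling, the floor, the filter, repeat hybridisations, left-out cultures, the samples fitted, the variance model and the threshold.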

Additional observations from a re-analysis of the deposited data

How the results depend on the processing

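Of the 27 differences of the 9 genes, 10 were called, and 6 of these calls held in every alternative run: GCY1 and YJR096W against Glc5h in both states, and XKS1 and YPR1 in Xyl72h minus Glc5h. Of 576 alternative values, 534 kept their direction and side of the threshold. The count of genes called in Xyl72h minus Glc24h, 1 as reported, was 0 with no further scaling, with cyclic loess, with scaling on reference genes, with a floor of 4, with no filter, with the first hybridisation only and with only the states compared in the fit, and 0 to 1 without single cultures. Over the alternatives XKS1 stayed at 0.84 to 1.26 there (adjusted p 0.0303 to 0.129). The count by the F-test was 1 with the exact permutation p under 0.01. With the replicate block of glucose culture in the glucose states alone, Glc24h minus Glc5h called 2 of the 9 genes (GCY1, adjusted p = 0.0450, and YJR096W, 0.0296) and 926 probe sets, against 1969. The replicate block of fermentation number over 3 states changed no call of the 9 genes (5, 1 and 4 called), while of the related genes CTT1 and GPP2 lost theirs in Xyl72h minus Glc24h. The XYL2 call in Glc24h minus Glc5h was also lost without Glc24h culture 0 (0.0750) or 1 (0.0707), without Glc5h culture 0 (0.0541) or 1 (0.0536), with no filter (0.0572) and with only the states compared in the fit (0.0735). Calls gained were SOR1/SOR2 in Xyl72h minus Glc5h (1.09, 0.0398) and ARA1 in Glc24h minus Glc5h (1.27, 0.0348) with scaling on reference genes, and ARA1 without Glc24h culture 2 (0.99, 0.0476).

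Directions turned only for differences that were not called. For Glc24h minus Glc5h, YDL124W was 0.22 with no further scaling, 0.221 with quantile normalisation, 0.20 with cyclic loess and 0.60 with reference genes, and -0.28 to 0.30 without single cultures. SOR1/SOR2 was -0.019 with quantile normalisation and -0.047 with cyclic loess, and -0.31 to 0.33 without single cultures. XKS1 was -0.10 to 0.27 without single cultures. GRE3 was -0.059 to 0.36 for Xyl72h minus Glc5h and -0.51 to 0.038 for Xyl72h minus Glc24h without single cultures.

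With scaling on the 5 reference genes the median of all probe sets was 0.11 for Xyl72h minus Glc5h, -0.09 for Xyl72h minus Glc24h and 0.27 for Glc24h minus Glc5h. The share of calls that were higher was 45.5%, 59.8% and 42.9% as reported, 74.9%, 32.8% and 74.1% with reference genes, and 48.9%, 39.3% and 54.9% with no further scaling. The number of probe sets called in Xyl72h minus Glc5h was 993 with no filter and 944 and 983 without Xyl72h culture 0 or 2, against 1508, and in Xyl72h minus Glc24h 157 with no filter, 215 with the first hybridisation only and 109 at the lowest without single cultures, against 331. Of the related lists in Xyl72h minus Glc5h, the aryl-alcohol genes called became 1 without any single culture of Xyl72h, Glc24h culture 1, or Glc5h culture 0 or 1, and the other reductases called became 5 without Xyl72h culture 2. The causes were not tested.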
